A study of Mus musculus with 3 samples.

Results

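Calcitonin gene-related peptide (CGRP) and its receptor were followed through the mouse anorectal junction, together with a pair of genes better known from neurons. The 6 genes were the ligand genes Calca and Calcb, the receptor genes Calcrl and Ramp1, and Stmn2 and Vsnl1. They were chosen by name from the 31053 genes of the count table because their levels in keratinocytes of these same libraries had drawn attention, so their levels there are a description and not a test. The study compared C57Bl/6 mice bought at 6 weeks of age in 3 groups: untreated mice dissected on day 0, and mice dissected on day 7 or day 42 after drinking water with 3% dextran sulfate sodium (DSS), which damages colonic epithelium, for 6 days that began at day 0. The labels gave the histology as normal, severe colitis and recovered. Distal colon and anus of 5 mice were pooled for each day and made into 1 droplet library of 3' single-cell RNA, so each group was 1 sample, differences between mice were not measured, a day cannot be told apart from its library, and no test between days was possible.

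CGRP is a short amidated peptide made mostly by sensory and enteric neurons. It widens blood vessels, and in the gut and skin it acts on vessels, immune cells and epithelium. Calca and Calcb are neighbouring genes for its alpha and beta forms; Calca transcripts can also be spliced to encode calcitonin. The receptor is a pair of chains: Calcrl, a seven-pass receptor, must join Ramp1 at the cell surface to bind CGRP, while Calcrl with Ramp2 or Ramp3 forms receptors for adrenomedullin. Stmn2 (stathmin 2) binds tubulin and is known for its role in growing axons. Vsnl1 (visinin-like 1) is a neuronal calcium sensor.

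The stretches of Calcb and Calca that code for the mature peptide are shown because they are the product at issue and because a 3' read must tell the genes apart. They were read from the GENCODE M21 transcripts (GRCm38, the build that the submitters' processing notes call mm10), 5′ to 3′, with the bases that differ between both genes in capitals.
Calcb, chr7:114721994-114722104, plus strand: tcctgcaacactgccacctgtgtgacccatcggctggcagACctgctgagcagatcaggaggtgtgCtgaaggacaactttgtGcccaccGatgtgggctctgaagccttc
Calca, chr7:114632470-114632580, minus strand: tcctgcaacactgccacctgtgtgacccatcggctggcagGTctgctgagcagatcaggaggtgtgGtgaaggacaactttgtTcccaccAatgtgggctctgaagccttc
Each stretch had 111 bases, or 37 codons. They differed at 5 bases in 4 codons, of which 3 changed the amino acid and 1 did not. The longest run of identical bases shared by the transcripts of both genes was 61 bases, and it ended 553 bases before the 3' end of Calca and 284 bases before that of Calcb, whereas the library chemistry captures 3' ends. Of 6 coding transcript models of Calca, 1 held the CGRP stretch, so a count of Calca does not separate CGRP from calcitonin messages. Calca lay at chr7:114631478-114636357 and Calcb at chr7:114718643-114723365, with 82285 bases between them. Stmn2 lay at chr3:8509360-8561606, Vsnl1 at chr12:11325242-11436613, Calcrl at chr2:84330626-84425411 and Ramp1 at chr1:91179822-91225196, and no annotated gene overlapped any of the 6.

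The libraries held 11037, 14376 and 11667 cells at day 0, day 7 and day 42, of which the authors' cell table named 3316, 9035 and 7970 keratinocytes. The median keratinocyte of these libraries had 9168, 11481 and 6542 unique molecular identifiers (UMIs, counted molecules). Levels are UMIs summed over a cell type of a library per 1000000 of its UMIs (CPM), and intervals are exact 95% limits for counting error only. All 10 keratinocyte markers had their highest level in the cells of that name, and no name among the 14 was neuronal. Mitochondrial UMIs made up over 20% of the total in 32.1%, 14.9% and 13.0% of cells; leaving these out together with the shallowest cells moved no log2 ratio of Calcb or Stmn2 against day 0 beyond its counting interval. Of all cells, 278 carried a barcode that occurred in 2 libraries; with or without them, the log2 ratios of Calcb and Stmn2 in keratinocytes stayed within their counting intervals.

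Calcb, the beta CGRP gene, was the more widely detected of the ligand genes. Its level in untreated keratinocytes was 87.7 CPM (84.6 to 90.9), from 2981 UMIs. Day 7 had 408 CPM (404 to 411; 52326 UMIs), and day 42 had 1356 CPM (1347 to 1366; 78821 UMIs). The level stepped up at each later day, and the counting intervals of the days did not overlap. The log2 ratio against day 0, with 10 CPM added to both sides, was 2.10 at day 7 and 3.81 at day 42. A Calcb UMI was found in 12.7% of untreated keratinocytes (11.6 to 13.8), in 35.8% on day 7 (34.9 to 36.8) and in 69.2% on day 42 (68.2 to 70.2). With every cell thinned to 1000 UMIs, which left out 34, 468 and 91 shallower cells, the shares were 4.11%, 16.5% and 47.8%. Among cells with a Calcb UMI the median count was 4, 5 and 10 UMIs, and the highest count in a cell was 80, 204 and 176. The 90th percentile was 17, 49 and 33 UMIs, so the median was highest at day 42 and the upper counts were highest at day 7; keratinocytes of day 42 were the shallowest.

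Calca, the alpha CGRP and calcitonin gene, was sparse. It had 1 CPM in untreated keratinocytes (0.693 to 1.40; 34 UMIs), 13.8 CPM on day 7 (13.1 to 14.4; 1765 UMIs) and 30.8 CPM on day 42 (29.4 to 32.3; 1792 UMIs). The log2 ratios against day 0 were 1.11 and 1.89. Few cells carried it: 0.754%, 7.13% and 5.81% had a UMI, and at day 42 the 10 cells with most Calca UMIs held 26.1% of them, with 105 in a single cell. These shares are not corrected for depth. The share with both Calca and Calcb was 6.84% at day 7 and 5.73% at day 42. Thinned to 1000 UMIs it was 0.455% and 1.13%, so the order of these days turned with depth. Calca UMIs per 100 Calcb UMIs were 1.14, 3.37 and 2.27 in the class. Those 10 cells of day 42, picked for their Calca, held 467 Calca and 691 Calcb UMIs. Of the keratinocytes with Calca, 56.0%, 96.0% and 98.7% also had Calcb, and 12, 32 and 14 cells had more Calca than Calcb UMIs.

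Stmn2 was close to undetected in keratinocytes of untreated mice. It had 1.65 CPM at day 0 (1.24 to 2.14), from 56 UMIs in 18 cells, against 227 CPM at day 7 (224 to 230) and 398 CPM at day 42 (393 to 403). The log2 ratios against day 0 were 4.35 and 5.13, and without the added 10 CPM the level was 138-fold and 242-fold higher, resting on those 56 UMIs. A Stmn2 UMI was seen in 0.543% of untreated keratinocytes (0.322 to 0.857), 27.2% of those on day 7 (26.3 to 28.1) and 33.1% of those on day 42 (32.1 to 34.2), and in 0.152%, 11.4% and 18.4% after thinning. Most of the difference in the share lay between day 0 and day 7.

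For comparison, the shares were taken in the class named T cells, which held mast cell markers as well, and in neutrophils. The source of UMIs there was not tested. Of T cells, 0.457%, 5.93% and 4.13% had a Calcb UMI and 0.913%, 2.54% and 0% a Stmn2 UMI, at median depths of 2064, 2260 and 1393 UMIs; 0 of 121 cells allows a share of up to 3.003% (exact upper limit). Of neutrophils, 4.63% and 5.36% had Calcb and 2.58% and 2.01% had Stmn2 on day 7 and day 42, at median depths of 2585 and 662 UMIs. Thinned to 1000 UMIs, the neutrophil shares on day 7 were 2.25% for Calcb (1.54 to 3.16) and 1.20% for Stmn2 (0.697 to 1.91), below the 16.5% and 11.4% of keratinocytes. On day 42 thinning left out 403 of 448 neutrophils, and the shares of the 45 others were 8.89% (2.48 to 21.2) and 2.22% (0.0563 to 11.8), below 47.8% and 18.4%. At day 0 the intervals of the Stmn2 share in keratinocytes (0.322 to 0.857) and T cells (0.111 to 3.26; 2 cells) overlapped.

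Vsnl1 was already present in untreated keratinocytes. It had 33.7 CPM before treatment (31.8 to 35.7), 40.3 CPM on day 7 (39.2 to 41.4) and 82.3 CPM on day 42 (79.9 to 84.6), and log2 ratios of 0.20 and 1.08. The thinned share with a UMI was 3.72%, 3.69% and 7.43%. Taken as a mean over cells of CPM per cell, the day 7 log2 ratio was -0.02, so no direction is given for that day. The receptor genes were low in keratinocytes: Calcrl had 4.74, 2.89 and 1.17 CPM, and Ramp1 had 16.1, 11.8 and 4.39 CPM. Calcrl was seen in 4.52%, 3.40% and 0.803% of keratinocytes, against 4.48%, 1.38% and 0.537% of colonocytes. Thinned to 1000 UMIs, 9 of 3282, 48 of 8567 and 13 of 7879 keratinocytes had it, so the order of day 0 and day 7 turned with depth. Of colonocytes, 17 of 3709, 4 of 983 and 1 of 1370 had it at that depth.

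Read against all genes, Calcb and Stmn2 stood near the top of the keratinocyte comparisons against day 0. A gene was called when its log2 ratio passed 1, among genes that reached 5 CPM on one or both of the days compared. At day 7 against day 0, 1.15% of 10088 genes were called higher and 0.971% lower; Calca, Calcb and Stmn2 were among the former, and Calcrl was below the level needed. At day 42 against day 0, 2.31% of 10114 genes were called higher and 1.99% lower, and Calca, Calcb, Stmn2 and Vsnl1 were among the higher. At day 42 against day 7, 1.73% of 9823 genes were called higher and 1.43% lower, and Calcb was the member among the higher. The genes were chosen on these contrasts, so nothing is read from the counts. From the highest ratio down, Stmn2 ranked 4 at day 7 and 1 at day 42 against day 0, Calcb ranked 16 and 4, Calca 86 and 53, and Vsnl1 2518 and 198. At day 42 against day 7, Calcb ranked 45, Vsnl1 226, Stmn2 298 and Calca 300. The calls near the threshold moved with the processing. For Calca at day 7 against day 0 the log2 ratio was 1.11, but 0.57 with each cluster weighing the same, 0.74 as a mean of CPM per cell and 0.82 after thinning to 1000 UMIs. For Vsnl1 at day 42 against day 0 it was 1.08, and 0.43, 0.97 and 0.89 in the same order.

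**Figure D1:**
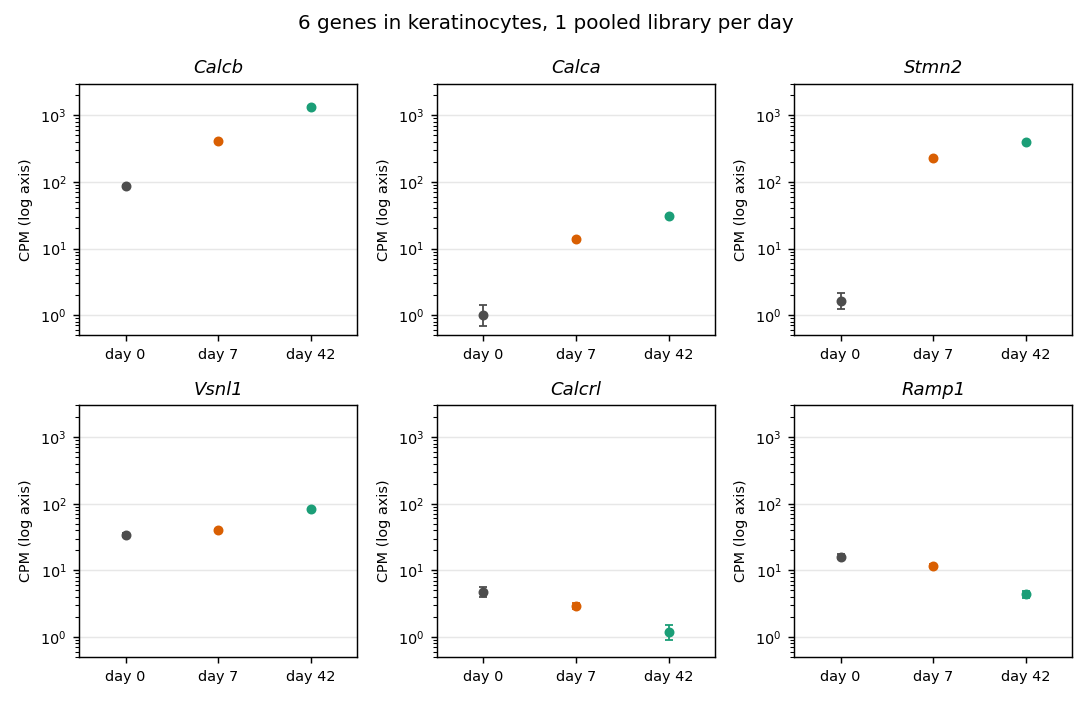
Level of each gene in keratinocytes, in CPM on a log axis, for the pooled library of each day; bars are exact 95% Poisson intervals and are hidden by the points where counts are high. Calcb, Calca and Stmn2 are higher at day 7 and day 42 than at day 0, Vsnl1 stands apart at day 42 with 82.3 CPM, and Calcrl and Ramp1 have their lowest levels at day 42.

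The deposited table split the keratinocytes into 9 clusters of at least 50 cells a day and a small one not described here, and Calcb and Stmn2 shared 4 of them. Cluster 1 was led by S100a4 and Igfbp7, cluster 3 by Ube2c, Birc5 and Cdc20, which act in cell division, cluster 5 by Psca, Ltf and Krt19, and cluster 12 by the hair sheath keratins Krt25 and Krt71. Together they held 91.8%, 98.2% and 99.3% of the Calcb UMIs of keratinocytes at day 0, day 7 and day 42. For Stmn2 they held 76.8%, 98.1% and 99.5%. The same clusters were 25.6%, 48.4% and 79.3% of keratinocytes, so the makeup of the class moved with the levels of both genes. Cluster 12 was shallow, with a median of 1948, 1672.5 and 1010.5 UMIs per cell. Its median mitochondrial share was 0.179%, 5.00% and 0.225% of UMIs, against 4.68% to 11.5% in the other clusters, and Sst and Lypd8, known from the gut, were among its leading genes. Their part in the levels of cluster 12 was not tested.

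Calcb in cluster 5 was high from the start, at 651, 947 and 1529 CPM. In the dividing cluster 3 it was 290, 811 and 1548 CPM, and in cluster 12 it was 152, 418 and 1274 CPM. Cluster 1 behaved differently between the days: Calcb was 178 CPM at day 0, 190 CPM at day 7 and 1687 CPM at day 42, so the step in this cluster lay after day 7. Its log2 ratios against day 0 were 0.09 (-0.03 to 0.22) and 3.18. The other 5 clusters (4, 8, 9, 13 and 17), led by genes such as Krt10, Cst6, H19, Scd1 and Cxcl14, had at most 94.6 CPM on any day. The log2 ratio at day 42 against day 0 passed 1 in 9 of 9 clusters, from 1.22 to 3.18, and that at day 7 in 3 of 9. Passing 1 at day 42 was not particular to keratinocytes. The same ratio was 2.55 and 2.98 in colonocyte clusters 2 and 7, 3.59 in fibroblasts and 4.93 in endothelial cells. With each cluster weighing the same, the class log2 ratio of Calcb was 0.86 at day 7, which is below the threshold, and 2.19 at day 42.

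Stmn2 had its step at day 7 in each of the 4 clusters. It was 3.18, 200 and 628 CPM in cluster 1, 6.50, 453 and 505 CPM in cluster 3, 2.99, 249 and 280 CPM in cluster 5, and 6.34 (1 UMI), 286 and 340 CPM in cluster 12. Between day 7 and day 42, only cluster 1 differed by more than the threshold, with a log2 ratio of 1.60; in clusters 3, 5 and 12 it was 0.15, 0.16 and 0.24. The other 5 clusters had at most 17.2 CPM. With equal cluster weights the class log2 ratios were 3.57 and 4.09.

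Calca and Vsnl1 were spread differently over the clusters. The 4 clusters held 85.3%, 98.8% and 99.7% of the Calca UMIs of keratinocytes but 59.5%, 77.4% and 95.6% of those of Vsnl1. At day 0, clusters 9 and 8 held 19.3% and 11.7% of the Vsnl1 UMIs. Calca was highest in the dividing cluster 3, at 4.16, 29.3 and 83.0 CPM, and was 2.45, 3.72 and 29.8 CPM in cluster 1. Vsnl1 was already 90.1 CPM in cluster 1 and 73.6 CPM in cluster 3 at day 0, and reached 126 and 109 CPM at day 42. Within clusters its log2 ratio at day 42 against day 0 passed 1 in 1 of 9, with a range of -0.09 to 1.03. Ramp1 had its highest levels in clusters 8, 13 and 17, the last with hair follicle genes, at 24.1 to 63.3 CPM over the days, and the 4 clusters with Calcb had at most 14.4 CPM. Those 4 clusters held 5.68%, 8.27% and 60% of the Ramp1 UMIs of keratinocytes, as they grew to 79.3% of the cells. No cluster differed by more than the threshold in Ramp1 between any pair of days, and the log2 ratio at day 42 against day 0 ranged from -0.38 to 0.24 within clusters against -0.86 for the class.

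**Figure D2:**
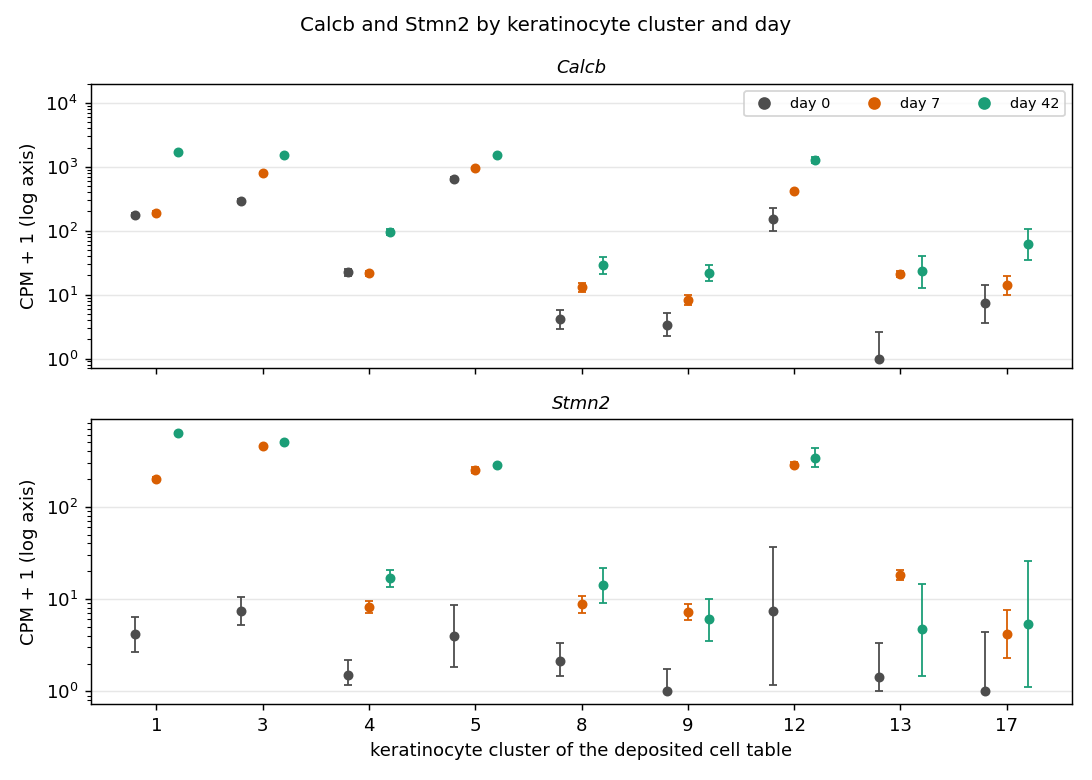
Level of Calcb (top) and Stmn2 (bottom) in each keratinocyte cluster, as CPM + 1 on a log axis, coloured by day, with exact 95% Poisson intervals. Clusters 1, 3, 5 and 12 stand above the other 5 for both genes; Calcb in cluster 1 is level between day 0 and day 7, while Stmn2 there is at 3.18 and 200 CPM.

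Calcb and Stmn2 were found in the same single keratinocytes. Both had a UMI in 12 untreated cells (0.362%), in 2000 cells on day 7 (22.1%, 21.3 to 23.0) and in 2573 cells on day 42 (32.3%, 31.3 to 33.3). If detection of each gene had been independent of the other, 0.0688%, 9.74% and 22.9% of cells would have held both. The odds ratio of detection was 14.2, 19.0 and 31.7. Deep cells show more of any gene, and after thinning to 1000 UMIs the odds ratio was 6.92 at day 7 and 8.56 at day 42 (at day 0, 3 cells held both). Within clusters, combined by the Mantel-Haenszel method, it was 6.00 and 23.3, a value not corrected for depth. Thinned to 1000 UMIs, the odds ratio went from 11.5 to 2.22 in cluster 3 at day 7, from 42.9 to 7.97 in cluster 1 at day 42 and from 27.1 to 3.12 in cluster 5 at day 42. All these values lay above 1, the value for independent detection, and no test was made because cells of 1 library are not replicates.

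Calcb was detected in more keratinocytes than Stmn2 on every day, so the shares of each within the other differ. Of keratinocytes with Stmn2, 66.7%, 81.5% and 97.5% also had Calcb, whereas of those with Calcb 2.86%, 61.8% and 46.7% had Stmn2. At day 42, 66 cells had Stmn2 without Calcb and 2941 had Calcb without Stmn2. Thinned to 1000 UMIs, 49.3% and 84.8% of cells with Stmn2 also had Calcb on day 7 and day 42, and 33.9% and 32.7% of cells with Calcb had Stmn2. At that depth 480 cells of day 7 had both and 494 had Stmn2 alone. In cluster 1 at day 42, 1315 of 3043 cells had both, 1055 had Calcb alone, 19 had Stmn2 alone and 654 had neither. In cluster 5 the same day, 745 of 2153 cells had both and 3 had Stmn2 alone. At day 0, cluster 5 had Calcb in 93.1% of its 87 cells and Stmn2 in 3 of them.

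The share of cells with Stmn2 climbed with the number of Calcb UMIs in the cell. Among cells thinned to 3000 UMIs at day 42 it was 2.85% with no Calcb UMI, 12.1% with 1, 30.01% with 2 to 4, 53.7% with 5 to 9 and 71.5% with 10 or more. At day 7 it was 6.46%, 39.1%, 59.5%, 71.3% and 78.7% (47 cells in the last). For the same Calcb count up to 9 UMIs, more cells had Stmn2 at day 7 than at day 42, with intervals that did not overlap over all keratinocytes, whose cluster makeup differed between the days. Within cluster 3 they did not overlap for 0, 1, 2 to 4 and 5 to 9 Calcb UMIs, whereas in cluster 1 they overlapped for 0, 1 and 5 to 9, and in cluster 5 for 5 to 9 (41.4%, 23.5 to 61.1, against 38.3%, 34.2 to 42.5). These limits hold counting error only, since cells of 1 library are not replicates, and do not test a difference between the days. At day 0 it was 0 of 125 cells with 1 Calcb UMI, 3 of 107 with 2 to 4, 2 of 26 with 5 to 9 and 0 of 5 with more. Calcb and Vsnl1 were less tied: their odds ratio was 3.70, 3.70 and 3.67, and after thinning to 1000 UMIs 1.92, 1.19 and 1.87.

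**Figure D3:**
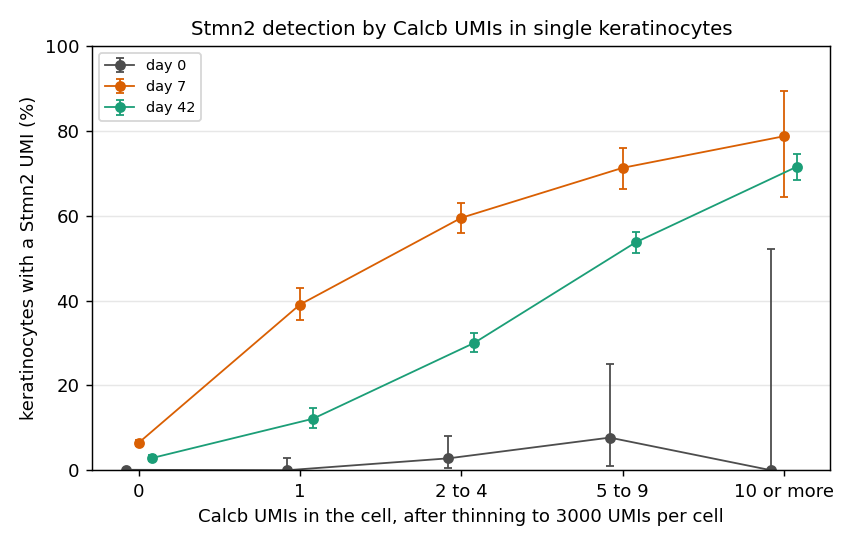
Share of keratinocytes with a Stmn2 UMI (percent) by the number of Calcb UMIs in the same cell, all cells thinned to 3000 UMIs, for each day, with exact 95% binomial intervals. The share climbs from 2.85% to 71.5% at day 42 and from 6.46% to 78.7% at day 7, and stays at or below 7.69% at day 0.

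Cells with both genes differed from their neighbours of the same cluster in other genes. In cluster 1 at day 42, the 1315 cells with both were set against the 654 with neither; their median depths were 7194 and 4963 UMIs. The highest log2 ratios belonged to Tm4sf1, a membrane protein (370 against 3.45 CPM, 4.82), Igfbp3, which binds insulin-like growth factors (1687 against 53.5 CPM, 4.74), and Ecm1, an extracellular matrix protein (1375 against 74.5 CPM, 4.04). Next came Inhba, the activin A subunit (3.89), Ppbp, a chemokine precursor (3.87), S100a4 (3.71), the stress-induced Nupr1 (3.51) and Crip1 (3.38). The lowest were Mgp, an inhibitor of calcification (-3.89), Apoe (-3.66), Hpgd, which degrades prostaglandins (-3.53), the matrix proteoglycan Dcn (-3.28) and Cyp2f2 (-2.91). Among genes looked up by name, Krt6a, a keratin of wounds, was at 3429 against 490 CPM and Krt7 at 1538 against 228 CPM, whereas the stem-like keratin Krt15 was at 1918 against 2014 CPM (at day 7, 2244 against 1197 CPM).

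These 13 genes were chosen at day 42, and the day 7 library gave the same sign for each of them. There the 79 cells with both and the 380 with neither had log2 ratios of 4.76 for Igfbp3, 3.16 for Ecm1, 3.95 for Ppbp, 3.68 for S100a4 and 3.34 for Nupr1. Of the 8 genes higher in cells with both, all but Igfbp3 and Ppbp had a lower ratio than at day 42. The gap was widest for Inhba (2.05 at day 7), Tm4sf1 (1.24) and Crip1 (0.87). The ratios of the 5 genes lower in cells with both were nearer to 0 than at day 42: Mgp, Apoe and Hpgd were at -1.85, -2.46 and -2.004, Dcn at -1.67 and Cyp2f2 at -2.22. Dcn and Mgp are also genes of fibroblasts, and the fibroblast markers summed to 122, 34.9 and 38.4 CPM in all keratinocytes over the 3 days; their part in these ratios was not tested. Thinning the sorted cells of day 42 to 3000 UMIs gave ratios of 4.75 for Tm4sf1 and -4.00 for Mgp.

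Across the 27 combinations of keratinocyte cluster and day, and among genes that reached 100 CPM in one or more of them, the genes whose log2 CPM followed Calcb most closely were Upk3bl, a uroplakin-like gene (Pearson's r 0.972), Anxa3 (0.969), Shroom3 (0.956), Gsr, glutathione reductase (0.950), and Wfdc2 (0.944). For Stmn2 they were Pnp (0.897), the neutrophil chemokine Cxcl5 (0.874), Gsr (0.847), Pmepa1 (0.834) and Akr1b8 (0.833). Stmn2 and Calcb had r of 0.827 with each other, Calca, which did not reach that level, had 0.816 with Calcb and 0.881 with Stmn2, and Vsnl1 had 0.615 and 0.602. These values describe 27 points that share 3 libraries and carry no test. By Spearman's rho, 2 of the 5 genes listed for Calcb and 1 of the 5 for Stmn2 stayed among the 5.

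The other genes of CGRP production were measured in keratinocytes too. Of 13 genes for peptide processing and granins, 4 reached 5 CPM, with a median log2 ratio of -0.05 at day 7 and 0.39 at day 42 against -0.03 and -0.05 over all genes tested. None was called higher, as were 1.15% of all genes at day 7 and 2.31% at day 42. At day 42, 1 was called lower, as were 1.99% of all genes: Cpe, a carboxypeptidase that trims neuropeptides, was at 240, 132 and 104 CPM. Furin, a general proprotein convertase, was at 35.2, 49.1 and 67.9 CPM, and Pam, the enzyme that amidates peptides such as CGRP, at 24.6, 25.3 and 35.9 CPM, with the convertase Pcsk6 at 12.1, 10.3 and 18.5 CPM. The convertases of neuroendocrine granules were near zero: Pcsk1 had 0.177, 0.0935 and 0 CPM and Pcsk2 0, 0.0312 and 0.0172 CPM. Of the peptide-degrading enzymes, Ece1, Ide and Nrd1 were tested and none was called; neprilysin, Mme, had 1.21, 0.281 and 0.120 CPM. The median log2 ratio of the tested enzymes was -0.25 at day 7 and -0.11 at day 42.

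Adrenomedullin, Adm, had 1.85, 1.47 and 0.757 CPM, Adm2 1.06, 1.58 and 0.723 CPM, and amylin, Iapp, at most 0.475 CPM, so among the 5 calcitonin family ligands Calca and Calcb were the ones at 5 CPM or more. Of the 6 receptor genes, 4 were tested at day 7 and 3 at day 42, and Ramp3 was called higher on both days, as were 1.15% and 2.31% of all genes. It was at 7.44, 28.1 and 30.8 CPM with log2 ratios of 1.13 and 1.23. Within cluster 1 it was at 27.2, 67.0 and 57.8 CPM and within cluster 3 at 22.9, 47.9 and 36.4 CPM, and the share of keratinocytes in these clusters differed between the days. Ramp2 was at 3.06, 5.85 and 4.39 CPM and Crcp, a component linked to CGRP receptor signalling, at 18.5, 27.1 and 24.2 CPM. Calcr, the calcitonin receptor, had no UMI in keratinocytes on any day, which at a floor of 3 counts allows up to 0.0882, 0.0234 and 0.0516 CPM. Of 16 genes of Gs and cAMP signalling, through which CGRP receptors act, 12 were tested against day 0 and none was called in either direction, with medians of -0.02 and -0.05. Gnas, the Gs alpha subunit, was at 399, 433 and 492 CPM, Prkar1a at 93.1, 139 and 151 CPM, and Arrb1, an arrestin, at 11.8, 3.16 and 2.68 CPM. Adcy6, an adenylyl cyclase, was at 7.32, 3.06 and 4.08 CPM, and the cAMP phosphodiesterases Pde4b and Pde4d were at 12.4, 14.2 and 5.97 CPM and at 5.06, 4.23 and 9.15 CPM.

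Other stathmins, calcium sensors and neuron markers were measured in keratinocytes. Stmn1 was at 314, 241 and 263 CPM with log2 ratios of -0.37 and -0.25, and Stmn3 and Stmn4 had at most 0.0588 CPM. Of 11 neuronal calcium sensor genes, 3 reached 5 CPM, and of these Vsnl1, itself chosen on these contrasts, was called higher at day 42, as were 2.31% of all genes; Hpcal1 was at 12.2, 19.0 and 14.3 CPM and Ncs1 at 9.77, 10.2 and 11.2 CPM. Of 20 neuron markers, Tubb3, a tubulin of axons, was the one that reached 5 CPM. It was called higher on both later days, as were 1.15% and 2.31% of all genes, at 1.21, 37.7 and 17.2 CPM. Elavl4 and Scn9a had no UMI in keratinocytes on any day, and Uchl1, Snap25 and Gap43 had at most 0.842 CPM. A shorter list of neuron markers used to check cell types, Tubb3 included, summed to 2.82, 39.3 and 17.9 CPM. Markers of Merkel cells, touch cells of the epidermis, summed to 66.6, 44.3 and 233 CPM, a list that includes Krt20 of the colon lining; their part in the levels of Calcb and Stmn2 was not tested.

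Keratins that mark wounds and the anal transition zone differed between the days as well. Of 4 wound keratins, 2 were called higher at day 7 and 3 at day 42, against 1.15% and 2.31% of all genes: Krt6a was at 765, 2276 and 3912 CPM, Krt6b at 166, 305 and 697 CPM and Krt16 at 58.8, 418 and 294 CPM, while Krt17 was at 1196, 2291 and 823 CPM. Of 9 transition zone genes, none was called higher and 2 were called lower at day 7 (0.971% of all genes), Krt8 and Krt4, the latter at 997, 362 and 593 CPM. At day 42 against day 0, 3 were called higher (2.31% of all genes) and none lower: Krt7 at 208, 340 and 1204 CPM, Krt19 at 201, 108 and 886 CPM and Krt13 at 1378, 1179 and 3387 CPM. Within cluster 5, which held 2.62%, 1.79% and 27.0% of keratinocytes, Krt13 was at 17460, 9699 and 8895 CPM, and in cluster 3 at 1119, 1315 and 969 CPM, so neither cluster was higher at day 42 than at day 0. In cluster 1 it was at 252, 256 and 535 CPM. Of the other transition zone genes, Aqp3, a water and glycerol channel, was at 294, 318 and 394 CPM, the transcription factor Sox2 at 59.8, 50.5 and 102 CPM and the gap junction gene Gjb2 at 20.03, 49.2 and 44.4 CPM. Neutrophil markers, among them S100a8 and S100a9, summed to 23.3, 1560 and 187 CPM in keratinocytes, and their part in the values of day 7 was not tested. The list medians of log2 ratio at day 7 and day 42 were 1.25 and 2.08 for wound keratins and -0.21 and 0.68 for the transition zone.

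Outside keratinocytes, Calcb at day 42 was at 274 CPM in endothelial cells, 204 CPM in fibroblasts, 198 CPM in secretory colonocytes, 196 CPM in lymphatics and 376 CPM in the cells the table calls Unknown, against 1356 CPM in keratinocytes. Colonocytes, the columnar lining of the colon, had 7.14, 35.5 and 106 CPM, and 1.52%, 17.9% and 14.2% of them had a Calcb UMI, at median depths of 9679, 4027 and 5879 UMIs. The level of Krt14, a keratin of squamous cells, was set beside it in each cell type. At day 42 there were 95.4 Calcb UMIs per 1000 Krt14 UMIs in colonocytes, 83.7 in fibroblasts and 72.1 in neutrophils, against 93.8 in keratinocytes. It was 103 in lymphatics (34 Calcb UMIs), 127 in secretory colonocytes, 136 in endothelial cells, 169 in the Unknown cells and 32.5 in T cells (5 Calcb UMIs). Colonocytes at day 7 had 29.9 against 42.1, and at day 0 26.0 against 18.7, with 66.2% of their day 0 Calcb UMIs in 10 cells. Whether these UMIs came from the cells themselves was not tested. Enteroendocrine cells had 260 at day 0, from 19 Calcb UMIs in 3 cells.

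Stmn2 stood in another proportion to Krt14 in stromal cells. At day 0, when keratinocytes had 0.352 Stmn2 UMIs per 1000 Krt14 UMIs, fibroblasts had 593, lymphatics 583 and muscle-like cells 1580. Its level in untreated fibroblasts was 290 CPM (277 to 303), with 68.3 CPM on day 7 (56.9 to 81.4) and 314 CPM on day 42 (273 to 359). Lymphatics had 431, 118 and 317 CPM, endothelial cells 45.1, 217 and 188 CPM, and muscle-like cells 286 CPM at day 0. At day 0, fibroblasts held 1895 Stmn2 UMIs against 56 in keratinocytes, and fibroblasts and lymphatics had their lowest level at day 7. In colonocytes the ratio to Krt14 was 14.9 per 1000 before treatment (163 Stmn2 UMIs), 21.5 on day 7 and 28.3 on day 42. Keratinocytes had 23.4 and 27.6 on the later days, so the ratios lay far apart at day 0 and close to each other after it. Fibroblasts at day 42 had 129.

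**Figure D4:**
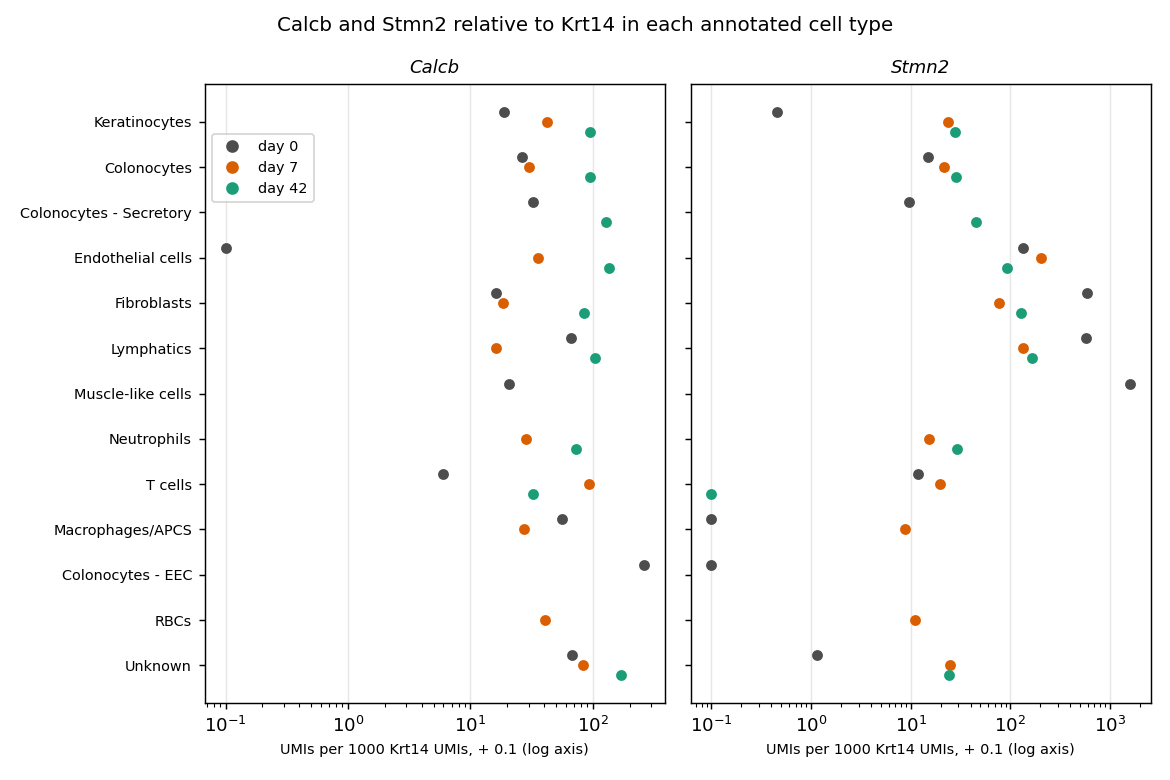
UMIs of Calcb (left) and Stmn2 (right) per 1000 Krt14 UMIs in the same cells, + 0.1 on a log axis, by annotated cell type and day; cell types with fewer than 50 cells on a day are not shown. For Calcb at day 42 the cell types lie between 32.5 in T cells and 169 in unnamed cells, on both sides of the 93.8 of keratinocytes; points at 0.1 stand for no UMI of the gene. By contrast, Stmn2 in fibroblasts, lymphatics and muscle-like cells at day 0 lies far above the 0.352 of keratinocytes.

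Outside the epithelium, Calca was also counted in the class named T cells, which held mast cell markers as well. Before treatment these cells had 52.5 CPM (35.2 to 75.4; 29 UMIs), those of day 7 had 103 CPM (71.0 to 143; 34 UMIs) and those of day 42 had 50.2 CPM (24.1 to 92.3; 10 UMIs). These came from 11, 9 and 5 cells, none of which had a Calcb UMI. Of these, 7, 3 and 2 had a UMI of a T cell marker and 5, 4 and 2 one of a mast cell marker, with 3, 2 and 0 cells holding both. The cells with a mast cell marker held 22 of the 29, 11 of the 34 and 4 of the 10 Calca UMIs. Of the other 208, 109 and 116 cells of the class, 33, 25 and 16 had a mast cell marker. The part of mast cells in the level of Calca was not tested further. Intervals of single days overlapped. In cluster 18, which held all these UMIs, the log2 ratio was 0.89 at day 7 against day 0 (0.23 to 1.54). At day 42 against day 7 it was -0.97 (-1.91 to -0.06). These limits treat each UMI as independent, whereas the UMIs came from 11, 9 and 5 cells. No difference between days is read from them. Enteroendocrine cells, of which 78 were seen at day 0, had no Calca UMI, which at a floor of 3 counts allows up to 5.27 CPM, and had 155 CPM of Iapp.

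The receptor chains had their highest levels in different cell types. Calcrl was highest in endothelial cells, at 254 CPM before treatment (208 to 307), 410 CPM on day 7 (385 to 436) and 411 CPM on day 42 (348 to 481), and in lymphatics, at 235, 315 and 213 CPM. At day 0 these neighbours in the order did not differ beyond their intervals. Muscle-like cells had 97.5 CPM at day 0 (79.8 to 118), which overlapped the 85.2 CPM of fibroblasts (78.3 to 92.6), and fibroblasts had 64.5 and 32.1 CPM on the later days. Of the endothelial markers, 7 of 8 were highest in endothelial cells and 7 of 7 lymphatic markers in lymphatics, and 4 of 6 mural markers (pericytes and smooth muscle) were highest in muscle-like cells. Muscle-like cells also had fibroblast markers at a summed 10020 CPM, against 27510 CPM in fibroblasts and at most 183 CPM elsewhere, and the highest level of 3 of 6 glia markers, which summed to 91.1 CPM. The markers of T cells and secretory colonocytes were highest in the cells of those names, 5 of 5 and 6 of 6. The class named T cells also had the highest level of 4 of 5 mast cell markers, which summed to 334 CPM there and to at most 130.2 CPM in any other cell type. Over all 60 combinations of cluster and day, the genes most like Calcrl were Gng11 (r 0.957), Lrrc32 (0.955), the endothelial coreceptor Eng (0.946), Ripor1 (0.943) and Il6st (0.943). By Spearman's rho, 1 of these 5, Il6st, stayed among the 5.

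Ramp1, the chain that makes Calcrl a CGRP receptor, was highest in secretory colonocytes, at 849 CPM at day 0 (819 to 880) and 749 CPM at day 42 (701 to 800); day 7 had 35 such cells and is not described. The class named T cells had 494 CPM (437 to 556), 241 CPM (191 to 300) and 426 CPM (341 to 527). Enteroendocrine cells had 294 CPM and muscle-like cells 254 CPM at day 0, with overlapping intervals, and macrophages 147 and 61.8 CPM at day 0 and day 7. Endothelial cells had no Ramp1 UMI at day 0, which allows up to 7.12 CPM, 6 on day 7 and 2 on day 42. They held Ramp2 instead, at 484, 582 and 696 CPM, and lymphatics had 485, 801 and 478 CPM of Ramp2. Ramp3 was highest in the class named T cells, at 112, 99.5 and 100.3 CPM. Of the cells of that class with Ramp1, 80 of 102, 25 of 30 and 36 of 43 had a T cell marker and 24, 6 and 5 a mast cell marker.

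Cells that held both chains of the CGRP receptor were few. Calcrl and Ramp1 were seen together in 253 cells of all 37080, of which 164 were untreated, 76 from day 7 and 13 from day 42. Keratinocytes, the largest class, held 78 of the 253. The cell types were sampled unequally, with 1436, 316 and 222 fibroblasts and 296, 41 and 24 muscle-like cells, so the counts of the days are not compared. The highest share was in muscle-like cells of day 0, where 51 of 296 cells had both (17.2%, 13.1 to 22.02), against 14.5% if independent. After thinning to 1000 UMIs it was 3.04%, against 2.38% if independent. Enteroendocrine cells of day 0 had both in 8 of 78 cells (10.3%, 4.53 to 19.2), an interval that overlapped that of muscle-like cells, against 8.22% if independent. Secretory colonocytes of day 0 had both in 25 of 479 (5.22%), against 4.41% if independent. Thinned to 1000 UMIs, the shares of these 2 cell types were 2.63% and 0.636%. Muscle-like cells numbered 41 and 24 at day 7 and day 42, so a share is not given there.

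Calcrl and Ramp2, a chain of adrenomedullin receptors, were detected together in vessel cells. Calcrl and Ramp2 were found together in 43.0% of untreated endothelial cells (33.1 to 53.3), 61.2% of those on day 7 (55.6 to 66.7) and 46.7% of those on day 42 (37.6 to 56.0), and in 41.3%, 54.2% and 19.05% of lymphatics. Independent detection would have given 34.8%, 53.3% and 40.3% in endothelial cells. After thinning to 1000 UMIs, 8.33%, 9.37% and 16.4% of endothelial cells held both, against 8.41%, 9.82% and 14.3% if independent. Calcrl with Ramp1 was found in 0, 6 and 2 endothelial cells, of 100, 312 and 122 cells. Keratinocytes had Calcrl with Ramp1 in 23, 53 and 2 cells, or 0.694%, 0.587% and 0.0251%. The shares if independent would have been 0.468%, 0.292% and 0.0210%. These values are not corrected for depth or cluster makeup, and no test was made because cells of 1 library are not replicates. After thinning to 1000 UMIs, 1, 0 and 0 keratinocytes held both.

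**Figure D5:**
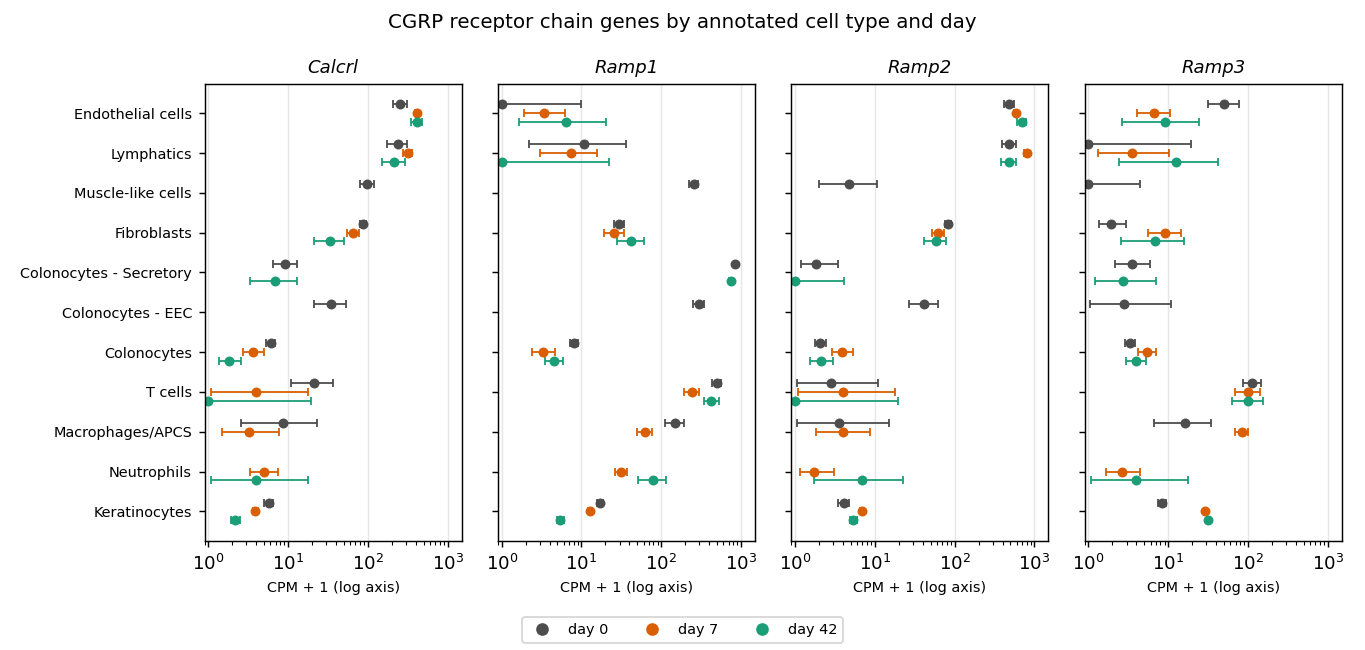
Level of the receptor chain genes Calcrl, Ramp1, Ramp2 and Ramp3 in each annotated cell type with at least 50 cells, as CPM + 1 on a log axis, coloured by day, with exact 95% Poisson intervals. Calcrl and Ramp2 are high in endothelial cells and lymphatics, where Ramp1 is near zero, while Ramp1 peaks in secretory colonocytes at 849 CPM and is shared with Calcrl in muscle-like cells.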

How the data were processed

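Single-cell RNA libraries were made with 10x Chromium 3' chemistry after trypsin digestion and removal of dead cells, per the labels' protocols. The values the authors deposited are whole-number counts (UMIs) per gene and cell, without normalization, and a cell table with day, cluster and cell type. The size factor that the authors deposited per cell is a ratio of its total to a typical total, and was used only to check the match of cells to counts. The submitters' processing notes name Cell Ranger 3.0.2 and mm10; the annotation, cell filter and typing method are not given in the sources used here. From the counts, UMIs were summed per cell type or cluster (at least 50 cells) and day, divided by the class total (CPM) and compared as log2 ratios with 10 CPM added. A ratio past 1 is called. Intervals are exact Poisson (levels) and Clopper-Pearson (shares), at 95%. Thinning drew 1000 or 3000 UMIs per cell without replacement.

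The members and lists were chosen with earlier results of these data known. The lists covered calcitonin family ligands and receptors, peptide processing, peptide degradation, Gs and cAMP signalling, stathmins, neuronal calcium sensors, neuron markers, wound keratins and the transition zone. Named were every calcitonin family gene and, from other lists, members of at least 50 CPM in keratinocytes or with its 2 highest or lowest ratios against day 0 among members tested; some members at lower levels are named as well. For likeness, the 5 highest correlations among genes of at least 100 CPM were named, and for cells with both genes the 8 highest and 5 lowest ratios. The sums and ratios were tested on simulated counts. The work ran in Python 3.11.15 with scanpy 1.11.5 (Scrublet scores, used only in an alternative), scipy 1.17.1, matplotlib 3.10.9, pandas 2.3.3 and numpy 2.4.6.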

Additional observations from a re-analysis of the deposited data

Results flagged for a closer look

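In 3 cases a gene was past the threshold in opposite directions in keratinocytes and in another cell type between day 0 and day 7; the difference was not tested, since each is 1 library against 1. Stmn2 had a log2 ratio of 4.35 in keratinocytes and -1.94 in fibroblasts, where it was at 290 CPM (1895 UMIs) and 68.3 CPM (125 UMIs). In lymphatics Stmn2 had -1.78, from 88 UMIs in 63 cells and 93 UMIs in 190 cells. Calcb had 2.10 in keratinocytes and -1.30 in lymphatics, which rests on 10 and 11 UMIs.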

How the results depend on the processing

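Over all results and alternatives, 331 values stayed within the counting interval or set range of the main value, 274 moved outside it and 4 changed sign. Of 216 log2 ratios of the 6 genes recomputed in keratinocytes under the alternatives, 211 kept their direction. The 5 others were all at day 7 against day 0: Vsnl1 (-0.02 as a mean of CPM per cell), Calcrl (0.08 as that mean, 0.08 with equal cluster weights, 0.29 thinned to 1000 UMIs) and Ramp1 (0.04 with equal cluster weights). For Calcb at day 7, then day 42, against day 0, the log2 ratio was 2.23 and 3.995 with median-of-ratios size factors, 1.76 and 3.91 as a mean of CPM per cell, 0.86 and 2.19 with equal cluster weights, 2.21 and 3.94 with 1 CPM added, 2.25 and 3.98 without the 10 cells with most UMIs of the gene, and 1.98 and 4.09 thinned. For Stmn2 it was 3.95 and 4.96 as a mean of CPM per cell, 3.57 and 4.09 with equal weights, 6.43 and 7.24 with 1 CPM added, 4.498 and 5.29 without those 10 cells, 3.91 and 4.98 thinned, and 3.79 and 4.57 with keratinocytes called from keratin UMIs. Without mitochondrial and ribosomal protein genes in the totals it was 4.81 and 5.56 for Stmn2, and 3.74 for Calcb at day 42; Stmn2 at day 42 was 5.23 with size factors and 5.19 without the cells of highest doublet score. The size factors moved the median of all genes at day 42 from -0.05 to 0.09.

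Shares of keratinocytes with a UMI at day 7, then day 42, were 16.5% and 47.8% for Calcb and 11.4% and 18.4% for Stmn2 at 1000 UMIs, 26.3% and 65.1%, then 19.2% and 28.5%, at 3000 UMIs, and 25.5% and 61.7%, then 19.6% and 27.0%, for at least 2 UMIs of the gene. A filter on cells gave 38.2% and 70.2% for Calcb and 29.2% for Stmn2 at day 7. The odds ratio of Calcb with Stmn2 was 6.92 and 8.56 at 1000 UMIs, 52.4 and 51.5 for at least 2 UMIs, 6.00 and 23.3 within clusters, and 29.3 at day 7 without cluster 12, an alternative chosen after seeing the data, as was leaving out cells with a barcode of 2 libraries. Muscle-like cells with Calcrl and Ramp1 were 3.04% after thinning. With every list member that had a UMI, list medians changed sign for stathmins (-0.0020 at day 7, -0.0085 at day 42), neuron markers (-0.0069 at day 42) and calcitonin ligands (-0.065 at day 42 against day 7). The cause of these shifts was not tested.

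With 1 pooled library a day, the spread between mice, batch effects and the days cannot be told apart. Low counts limit Calca and Stmn2 at day 0 most. No paired analysis was possible because each day has 1 sample.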
